A study of Rattus norvegicus with 8 samples.

Results

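On a cDNA clone array hybridised with RNA from the rat supraoptic nucleus, each clone number carries the letter c or d, and 415 c clones are described here. They are 36.0% of the clones on the array, which holds 737 others, and 72.0% of its c clones. They were selected by brightness: the clones were ranked by intensity within each array, the ranks were averaged over all 8 arrays, and the c clones that were not among the 25% of clones with the highest mean rank (the brightest 25%) were kept. The ranks pool control and dehydrated arrays, so the choice used the overall brightness of a clone and its letter. The difference between the groups was not a criterion, but it enters the mean rank. A c clone that fell far enough to leave the brightest 25% was counted in because it fell.

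Total RNA was taken from the microdissected nucleus. The rats were Sprague Dawley males, 10 to 12 weeks of age. The control group has 4 arrays and the group dehydrated for 3 days has 4, and the same clones were spotted on every array. The targets were cDNA labelled with radioactive CTP, primed with oligo(dT), with 1 target per array. The source name of control replicate 2 leaves out the word control, and its group rests on its description. The labels do not say how many rats stand behind an array, whether nuclei were pooled, or how the controls were watered. Array titles are numbered in 2 runs, one from 3 to 6 and one from 16 to 19. A run holds 2 arrays of each group, and the labels give no meaning for the numbers. Neighbours in this numbering may be technical repeats where they belong to one group, so the p-values below measure the spread between arrays, which may not be the spread between animals.

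The supraoptic nucleus is a hypothalamic nucleus of magnocellular neurons that make vasopressin and oxytocin, carry them down axons to the posterior pituitary and release them into the blood. Water deprivation raises plasma osmolality, to which these neurons respond with more firing, more hormone release and a changed set of transcripts. Suppression subtractive hybridisation, named in the series title, enriches cDNAs whose transcripts differ in abundance between a pair of RNA samples, and the libraries it yields can hold several clones of the same transcript. The labelling protocol calls the rats C or D, but no source used here says that the letter of a clone refers to them, and no source used here pairs a clone number with a gene or a sequence. Clones are therefore given by number and brightness, different members may carry the same transcript, and no marker of the nucleus can be checked. The brightness of a clone also depends on its length and base composition. A clone called less abundant in this selection is a dimmer one, and intensities are compared below between arrays, not read as the transcript numbers of different clones. In RNA from a dissected tissue, fewer cells of a type and less RNA per cell cannot be told apart.

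The median member lay just above the middle of the control arrays and in the lower part of the dehydrated arrays. Their median rank, where 1 is the dimmest clone of the array, was 617, 628, 609 and 617 on control replicates 1 to 4 and 304, 313, 286 and 281 on dehydrated replicates 1 to 4. The mean of these medians was 618 ± 7.8 (SD, n = 4) in controls and 296 ± 15 (SD, n = 4) after dehydration, and the groups did not overlap. The d clones outside the brightest 25%, 449 clones, ran the other way, from a median rank of 248 to 258 on control arrays to 528 to 557 on dehydrated arrays. The 161 c clones in the brightest 25% had median ranks of 1002 to 1024 in controls and of 985 to 996 after dehydration.

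On dehydrated arrays the members thinned out in the upper ranks and crowded the lowest ones. The dimmest 25% of the array held 40 to 43 of the 415 members on each control array and 195 to 210 on each dehydrated array. The brightest 25% of the array held 33 to 43 members on each control array and 2 or 3 on each dehydrated array. These counts use the ranks that made the selection. A member in the brightest 25% on every control array had to rank lower on dehydrated arrays, or its mean rank would have excluded it. The drop in this count is thus in part set by the selection. Among the dimmest 10% of clones, 115 or 116 per array, 1 to 4 were members on each control array and 98 to 106 on each dehydrated array. The single dimmest clone was a member on 4 of 4 dehydrated arrays and on 0 of 4 control arrays. In all, 195 members ranked above the middle of the array on every control array, and 52 did so on every dehydrated array. A full crossing, from above the middle on 4 control arrays into the dimmest 25% on 4 dehydrated arrays, was seen for 40 members. None of the 449 d clones outside the brightest 25% by mean rank made it. Clones in the brightest 25% by mean rank could not make it, because a full crossing keeps the mean rank below the selection limit. The reverse, from the dimmest 25% on 4 control arrays to above the middle on 4 dehydrated arrays, was seen for 10 clones. None of these was a member.

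As deposited, before any scaling, the median member had an intensity of 4003, 3607, 2166 and 2274 on control replicates 1 to 4. On dehydrated replicates 1 to 4 it was 2590, 2361, 2011 and 1851. The 2 control arrays of run 16 to 19 are the high ones, and the highest dehydrated median is above the lowest control median, so these medians overlap between groups. Within each run they do not: both dehydrated arrays lay below both control arrays. The members held 19.6% to 22.8% of the total intensity of a control array and 7.33% to 10.8% of that of a dehydrated array. Summed over all clones, intensity lay between 4652440 and 9933170 on a control array and between 8333210 and 17278000 on a dehydrated array.

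The comparison the series was designed for, dehydrated against control, was fitted on all clones of the array after quantile normalization, which gives every array the same set of values, so that a difference is relative to the rest of the array. Of the 415 members, 313 (75.4%) fell and 13 (3.13%) rose in dehydrated nuclei, and 89 did not pass the test (limma, Benjamini-Hochberg adjusted p under 0.05 over all clones). Over the whole array 31.7% of clones fell and 40.5% rose, and 72.1% passed in either direction. The median member difference was -0.67 on the log2 scale (dehydrated minus control), a 1.59-fold lower intensity, with the middle of the distribution from -1.17 at the 25th to -0.32 at the 75th percentile. The median over all clones was 0.17. Differences among members ran from -3.47 to 0.82, and 370 members were below 0. The median normalized level over members was 11.74 in controls and 10.92 after dehydration, on the log2 scale. These medians were taken separately for each group, so their gap is not the median difference.

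The other c clones, those in the brightest 25%, moved less uniformly, with 41 of 161 (25.5%) lower, 20 higher and a median difference of -0.058. Of the d clones outside the brightest 25%, 2 of 449 fell and 380 (84.6%) rose, with a median of 0.65. These values are relative to the rest of the array, so a rise in one set lowers the others. With no scaling the median difference was 1.06 for these d clones, 0.69 for the c clones in the brightest 25% and -0.24 for the members. The rule moves bright c clones that fell far enough out of the brightest 25% and into the members, so fewer that fell are left among the 161. These are counts side by side, and the difference between the sets of clones was not tested.

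Within a group, arrays with adjacent title numbers resemble each other more than they resemble arrays of the other run, and such arrays of the same group are called adjacent below. Over the 415 members, adjacent arrays differed by a median of 0.068 to 0.12 in normalized log2 intensity. Arrays that share a group but not a run differed by 0.20 to 0.23, and control from dehydrated arrays by 0.66 to 0.78. With adjacent arrays averaged, which leaves 2 values per group, 227 members (54.7%) fell and 2 rose by limma's adjusted p, against 22.1% and 22.7% of all clones, and all 227 were among the 313. Treating adjacent arrays as a random block (estimated correlation 0.77), 255 members fell and 2 rose, against 25.3% and 31.0% of all clones.

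The arrays of the groups did not overlap at all for 304 members after normalization. For 297 of them the 4 dehydrated arrays were below the 4 control arrays and for 7 above, against 29.5% and 36.8% of all clones. The deposited intensities, with the gap in brightness between runs left in, separated 107 members downward and 20 upward, against 9.72% and 45.1% of all clones. Judged within each run, 183 members had both dehydrated arrays below both control arrays in both runs and 68 had them above, against 17.4% and 65.1% of all clones. More members lay lower than higher in unscaled intensity, on an array where most clones lay higher.

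Sizes were uneven. Of the members that fell, 27 did so by 4-fold or more, 105 by 2-fold to 4-fold and 181 by less than 2-fold. Falls of 2-fold or more were thus found for 132 members, against 12.8% of all clones, and falls of 4-fold or more for 27, against 2.52% of all clones. None of the 13 that rose reached 2-fold, against 9.03% of all clones (limma). The levels of these classes follow in part from the classing, since the control level enters the difference and a dim clone has little room for a large fall, and they are given as a description. The 27 that fell by 4-fold or more had a median control level of 13.15 on the log2 scale and a median control rank of 920, and a median rank of 94 after dehydration. That control rank is above 822.75, the lowest mean rank left out by the selection. A member with a mean control rank above this limit had to rank lower on dehydrated arrays to be counted in. With members chosen by control ranks alone, falls of 2-fold or more numbered 103, against 132. Those that fell by 2-fold to 4-fold had a median control rank of 688.5 and a dehydrated rank of 173.8, and those that fell by less than 2-fold had ranks of 532.5 and 265.8. The 89 that did not pass had ranks of 560.5 and 539.2.

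Many of the lowered values lie next to the bottom of their array. Whether background was subtracted is not stated in the labels, and with background left in, a ratio of intensities is smaller than the ratio of the signals. The share of members under 1.5 times the lowest intensity of the array was 0.241%, 0.241%, 2.65% and 1.45% on control replicates 1 to 4 and 19.5%, 16.4%, 32.3% and 26.7% on dehydrated replicates 1 to 4. Counted over all clones, 114 to 179 were this low on a control array and 74 to 156 on a dehydrated array. Members made up 1 to 11 and 68 to 134 of these. Of the 27 members that fell by 4-fold or more, 16 were this low on at least 1 dehydrated array and 11 on all 4. Of the 105 that fell by 2-fold to 4-fold, 61 were this low on at least 1 dehydrated array. None of these 132 members was this low on any control array. With the 1st percentile of each array subtracted as background, the median member difference was -1.36, and 253 members fell by 2-fold or more, against 23.4% of all clones (limma). That subtraction sets the lowest values to a floor, so these sizes depend on the floor.

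The members named here were taken from those whose intensity was above the dimmest 10% on every array, so that their folds do not rest on values next to the bottom. Of the 296 members that fell without overlap of the groups, 170 met this condition, and the pair with the lowest p was c386 and c351. The intensity of c386 was 15966, 12621, 6271 and 6280 on control replicates 1 to 4 and 2584, 2462, 2181 and 2062 on dehydrated replicates 1 to 4. Each control array was above each dehydrated array, and the controls of run 16 to 19 were the brightest. After normalization c386 fell from 13.62 ± 0.11 to 11.00 ± 0.071 (log2, SD, n = 4), by 6.16-fold, with a 95% interval of the log2 difference from -2.81 to -2.43 (limma adjusted p = 6.8e-08). Its rank went from 966 to 987 on control arrays to 301 to 362 on dehydrated arrays. The lowest mean rank left out by the selection was 822.75, and each control rank of c386 was above it. The fall of c386 brought its mean rank over all arrays to 653.75, so it was counted in because it fell.

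The intensity of c351 was 11891, 10881, 5588 and 5919 on control replicates 1 to 4 and 2593, 2361, 2265 and 1981 on dehydrated replicates 1 to 4. The groups did not overlap here either, and its rank went from 941 to 957 on control arrays to 305 to 381 on dehydrated arrays. Its control ranks too were above 822.75, the lowest mean rank left out. Its mean rank over all arrays was 640.4, so c351 was also counted in because it fell. After normalization c351 fell from 13.35 ± 0.065 to 10.99 ± 0.091 (log2, SD, n = 4), by 5.15-fold, with a 95% interval from -2.54 to -2.19 (limma adjusted p = 7.2e-08). Averaging adjacent arrays gave both clones a limma adjusted p of 0.0040. With no scaling the log2 differences were -2.03 for c386 and -1.82 for c351. With the 1st percentile subtracted they were -3.54 and -3.26, and neither clone was at the floor on any array, so for these clones the treatment of the background alone moved the fold from 6.16 to 11.7 and from 5.15 to 9.61.

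The 13 members that rose were the exception, and small in size, with log2 differences from 0.30 to 0.82. Of these, 11 had a mean rank above the middle of the array. The pair with the lowest p was c636 and c710, the only members that rose with adjacent arrays averaged. The intensity of c636 was 3241, 3156, 2317 and 2193 on control replicates 1 to 4 and 6616, 5811, 4683 and 4543 on dehydrated replicates 1 to 4. All dehydrated arrays were above all control arrays in deposited intensity. After normalization c636 rose from 11.64 ± 0.13 to 12.29 ± 0.13 (log2, SD, n = 4), by 1.57-fold, with a 95% interval from 0.43 to 0.88 (limma adjusted p = 0.00028).

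The intensity of c710 was 2642, 2181, 2079 and 2092 on control replicates 1 to 4 and 6223, 5336, 4376 and 4651 on dehydrated replicates 1 to 4. The groups did not overlap, and its rank went from 385 to 581 on control arrays to 707 to 820 on dehydrated arrays. After normalization c710 rose from 11.40 ± 0.26 to 12.22 ± 0.19 (log2, SD, n = 4), by 1.77-fold, with a 95% interval from 0.49 to 1.16 (limma adjusted p = 0.00078). Averaging adjacent arrays gave limma adjusted p of 0.032 for c636 and 0.035 for c710. Both calls were lost when each array was centred on its brightest 25% in place of quantile normalization, with log2 differences of 0.27 and 0.46 and limma adjusted p of 0.376 and 0.220.

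The reference against which a member is read sets the size of the fall and, for some members, its sign. With no scaling the median member difference was -0.24, 110 members fell and 21 rose (limma, adjusted p under 0.05), against 9.98% and 49.4% of all clones, whose median difference was 0.73. Of the 415 members, 132 had a difference above 0 in this fit. With each array centred on its median the member median was -0.63, with 286 lower and 6 higher, against 26.8% and 44.1% of all clones. With each array centred on the median of the brightest 25%, which holds no member, it was -0.96, with 297 lower and 0 higher (limma; 0 at an unadjusted p under 0.05), against 29.9% and 14.7% of all clones. Ranks within an array are the same under these scalings, and the size of the fall is not.

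The 89 members that did not pass cannot all be called unchanged. Their log2 differences ran from -0.67 to 0.39, with a median of -0.074. For 41 of them the 95% interval lay within 0.5 of 0 on the log2 scale and for 85 within 1, so a 2-fold change lies outside the interval for those 85.

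The members were also divided by their mean rank over all 8 arrays. The selection used this rank and the change itself enters it, since a clone that is bright in controls and dim after dehydration gets a middling mean rank, so the counts describe the members and no order is read from them. Of the 139 dimmest, 122 fell and 0 rose (limma; 0 at an unadjusted p under 0.05 and 0 by the exact permutation test), with a median difference of -0.65. Of the 138 in the middle, 105 fell and 2 rose, with a median of -0.83, and of the 138 brightest 86 fell and 11 rose, with a median of -0.53. With no scaling these medians were -0.20, -0.41 and -0.15.

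At the limit of the selection, the 10 members just inside it, of mean rank 805.4 to 822.6, had a median difference of -0.10, with 4 lower and 2 higher. The 10 c clones just outside, of mean rank 823.5 to 844.6, had a median of -0.094, with 3 lower and 3 higher. Had the ranks been taken from control arrays alone, 392 c clones would have been kept, of which 277 (70.7%) fell and 22 rose. From dehydrated arrays alone it would have been 433, of which 326 (75.3%) fell and 12 rose. Falls of 2-fold or more numbered 103 with control ranks and 137 with dehydrated ranks, against 132 in the selection used.

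The c clones form 2 stretches of the numbering, 183 to 200 and 266 to 823, and members fell in all parts of both. In the short stretch 11 of 16 members fell, with a median difference of -0.83. Along the long stretch the median was -0.81 for numbers 266 to 365, -0.98 for 366 to 465, -0.63 for 466 to 565, -0.51 for 566 to 665, -0.61 for 666 to 765 and -0.60 for 766 to 823. The share of members that fell ran from 68.8% in the short stretch to 84.5% for numbers 366 to 465. Of the 13 members that rose, 6 were among numbers 566 to 665. Where on the array or in which plate a number lay is not given in the labels.

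The spread between arrays was small beside the median member difference. It counts adjacent arrays singly, though they may be technical repeats, so it may not be the spread between animals. The median member had an SD of 0.14 between control arrays and 0.16 between dehydrated arrays on the normalized log2 scale, and the median half-width of the 95% interval of its difference was 0.27. For the c clones of the brightest 25% these SDs were 0.25 and 0.20. The median normalized difference of the members was -0.71 within run 3 to 6 and -0.67 within run 16 to 19, and 352 of 415 members were below 0 in both. As deposited the within-run medians were -0.077 and -0.44, and 237 members were below 0 in both runs. Both runs contributed to the calls above, so their likeness is no separate test.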

How the data were processed

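Intensities of all clones on 8 arrays were used as the authors deposited them, on a linear scale. Per the labels' protocols the targets were radiolabelled cDNA from total RNA; how images were quantified or scaled and backgrounds treated is not stated there. Of the deposited intensity values, 1 cell is empty, and it belongs to no member. Arrays have no read depth, and their number limits the precision. Arrays were quantile normalized, log2 transformed and fitted with limma 3.58.1 in R 4.3.3 (condition as the only term, two-sided, Benjamini-Hochberg over all clones, threshold 0.05). The fit was tested only on simulated arrays with independent errors and far fewer changed clones than pass here. That test does not check the normalization or the p-values under the conditions of these data. Groups came from the descriptions, and replicate numbers follow accession order and pair no arrays.

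Named clones were the pair with the lowest p in each direction among members that passed, had no overlap of the groups and lay above the 10th percentile of every array. The members, rules and lists were chosen with earlier results of these data known. The alternatives changed the scaling, the background, the test, the treatment of adjacent arrays and of runs, the membership, or left out each array. The counts within both runs were added after the data were seen. Gene identity and clone sequences were not analysed here.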

Additional observations from a re-analysis of the deposited data

Results flagged for a closer look

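The change with dehydration was unequal in the runs of title numbers for 38 of the 415 members (limma interaction term, adjusted p under 0.05), 9.16% of them, against 7.81% of all clones. The difference was more negative in run 16 to 19 for 20 and less negative for 18, and it had opposite signs in the runs for 6 of the 38. With median centring 140 members (33.7%) passed, against 25.3% of all clones. With no scaling 142 members passed, against 15.9% of all clones, and 140 of these were more negative in run 16 to 19. This term is judged against the spread of neighbouring arrays alone, which may be technical, and the meaning of the runs is not given in the labels.

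Control replicate 1 stood apart from the other control arrays for c386, with a normalized log2 level of 13.79 against 13.55 to 13.59. The share of members in the brightest 25% of the array was 0.482% on dehydrated replicate 3 and 0.723% on the other dehydrated arrays, which is 2 members against 3. The nominal rate at which chance sets a sample apart in this way is about 1 group in 20. That rate does not hold for these member counts, which are equal on all other dehydrated arrays.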

How the results depend on the processing

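The count of members that fell, 313, stayed within 1.5 times under 24 of 25 alternatives and was 110 with no scaling. The count that rose, 13, was 6 with median centring, 21 with no scaling, 0 centred on the brightest 25%, 7 by the exact permutation test, 2 with adjacent arrays averaged or as a random block, 24 with the run as a block, 27 in run 16 to 19, 1 when the brightest 50% were left out in place of 25%, and 22 with ranks from control arrays alone. The median member difference kept its sign: it was -0.24 with no scaling, -0.63 with median centring, -0.73 with cyclic loess, -0.96 centred on the brightest 25%, -0.71 without the dimmest 25%, -0.45 with an offset at the 5th percentile, -1.36 with the 1st percentile subtracted, -0.58 in run 3 to 6 and -0.74 in run 16 to 19, each normalized alone, -0.72 without the brightest 50% and -0.60 with ranks from control arrays alone. Falls of 2-fold or more, 132, became 62 with no scaling, 64 with the offset and 253 after subtraction. Members without overlap, 304, became 127 with no scaling. The 38 differences between runs became 140 with median centring and 142 with no scaling. The causes of these moves were not tested.

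Leaving out each array gave 299 to 313 that fell, 8 to 13 that rose, a median of -0.68 to -0.64, 118 to 145 falls of 2-fold or more and 307 to 321 members without overlap. Clones c386 and c351 passed under all 22 alternatives that kept the membership, and c636 and c710 under 21 of 22. The alternatives that changed the membership were not scored for these clones, and some of them may leave a named clone out. On every control array c386 and c351 ranked above 822.75, the lowest mean rank left out by the selection. No paired analysis was possible because the labels pair no control array with a dehydrated one. The run was used as a block.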
